A study of Mus musculus with 21 samples.

Results

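Marker genes of macrophages and monocytes were examined in mouse aortic valves, the leaflets that keep blood from flowing back from the aorta into the left ventricle. The set holds 33 genes, chosen by name as a list, out of 20872 genes in the deposited table. Of these, 32 were found by their symbol and Spi1 was found by its identifier, because the table lists it under the older symbol Sfpi1. Within the set, Lyve1, Folr2, Timd4, Mrc1 and Cd163 were treated as 5 resident-type genes and Ccr2 and Lyz1 as 2 recruited-type genes, and the other 26 were kept apart from both. The rule uses gene names and no measured value, but the set was drawn up with earlier results of these data known, so the counts of members below describe them and are not independent evidence.

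RNA-seq was run on 21 libraries of whole valves, lysed without culture, from mice that were all Terc-/- of generation 2, meaning that they lack the RNA template of telomerase and carry shortened telomeres. WT mice had both copies of Notch1 (N1+/+), and N1het mice had 1 functional copy. The 5 groups were WT with healthy valves on solvent (n = 4), N1het with healthy valves on solvent (n = 6), N1het with healthy valves on XCT790 (n = 5), N1het with stenotic valves on solvent (n = 3) and N1het with stenotic valves on XCT790 (n = 3). XCT790, a synthetic inverse agonist of the nuclear receptor ERRα, was given by injection into the peritoneal cavity at 5 mg/kg each day, solvent or drug running for 4 weeks from an age of 4 weeks. The labels do not say how a valve was classed as stenotic, nor whether each library is a separate mouse, so p-values measure only the spread between these libraries.

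Macrophages of healthy heart and valve tissue are long-lived cells, many of which divide in place. Folr2, Timd4, Lyve1, Mrc1 and Cd163 are commonly used to recognise them. Monocytes are made in bone marrow, carry the chemokine receptor CCR2 and enter injured tissue, where they can turn into macrophages. Both kinds of cell depend on signals through the receptor CSF1R and on the transcription factor PU.1, the product of Spi1. In whole tissue, more cells of a type and more RNA per cell cannot be told apart.

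Before any comparison, 3 facts of the libraries matter. First, the agent field of 6 libraries contradicts their title: it gives solvent for N1het healthy XCT790 1 to 3 and XCT790 for N1het stenosis 1 to 3. Titles were followed. Under the other reading all 6 stenotic libraries would be on XCT790, and the comparisons of stenosis under solvent, of XCT790 in stenotic valves, of stenosis over both treatments, of the interaction and of stenosis on solvent against WT could not be made. Second, 6 libraries had 17.71 to 27.27 M (mega) reads and only 0.057% to 0.511% mitochondrial reads. The other 15 had 8.42 to 15.55 M reads and 0.836% to 8.279% mitochondrial reads. These shares count only the 6 of 13 mitochondrially encoded genes that the deposited table lists. The 6 libraries with most reads, called deep below, are WT 1, N1het healthy 1 and 4, N1het healthy XCT790 1 and 2, and N1het stenosis XCT790 2. The stenotic solvent group thus had none. Finally, heart muscle genes, such as those for cardiac myosin and troponin, summed to between 36.2 and 5137 FPKM in single libraries, with wide and overlapping ranges in all 5 groups.

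Levels are given as FPKM, fragments scaled to gene length and library size, which allows genes to be ranked within a library. Lyz2, which encodes the lysozyme of macrophages and neutrophils, was the most abundant of the 33 genes with a mean of 1420 FPKM over 21 libraries. It was followed by Tyrobp (419), the signalling adaptor DAP12, by Pf4 (300.2), a chemokine of platelets and some tissue macrophages, by Ctss (245), the protease cathepsin S, and by Fcer1g (236), the Fc receptor gamma chain. At the other end, Timd4, a receptor for phosphatidylserine on dying cells, averaged 2.13 FPKM, Ccr2 3.89 and Siglec1, a sialic acid-binding adhesion receptor, 4.13. The other resident-type genes had means of 37.4 (Mrc1), 22.8 (Lyve1), 9.48 (Folr2) and 6.16 FPKM (Cd163), and Lyz1 had 38.8. A middle tier was formed by Ms4a7 (132), Cd68 (131), Cd14 (99.0), Laptm5 (93.9), Lgmn (85.3), Fcgr3 (76.9), Csf1r (75.9), Ly86 (71.3), Aif1 (52.7) and Cd53 (51.9). Lower means were seen for Fcgr2b (31.8), Mpeg1 (26.5), Cybb (25.4), Msr1 (22.8), Spi1 (19.9), Cx3cr1 (17.8), Cd86 (11.8), Slc11a1 (7.84), Fcgr1 (7.59) and Trem2 (6.92). All 33 genes had a mean of at least 1 FPKM, the minimum used for testing.

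Summed over the set, the level was 1887 to 3012 FPKM in WT valves and 1232 to 2992 in N1het healthy valves. It was 1587 to 4909 in N1het healthy valves on XCT790, 4812 to 8630 in stenotic valves, and 2644, 6245 and 10500 in stenotic valves on XCT790. The 3 stenotic solvent libraries thus lay above all 10 healthy solvent libraries, whereas 1 of the 3 stenotic libraries on XCT790 lay within the healthy range. Deep libraries had the lowest sums in the N1het healthy groups: 1232 and 1794 FPKM against 2342 to 2992 in the other 4 N1het healthy libraries, and 1587 and 1980 against 3681 to 4909 in the other 3 on XCT790. The deep libraries of the other groups lay in the middle, with 2356 FPKM for WT 1 and 6245 for N1het stenosis XCT790 2. Lyz2 made up much of these sums, with 3117 of 6847 FPKM in N1het stenosis 1 and 4585 of 10500 in N1het stenosis XCT790 3. Without Lyz1 and Lyz2 the sums were 1243 to 2118 FPKM in WT, 778.5 to 1846 in N1het healthy and 2671 to 5059 in stenotic valves. On XCT790 they were 1125 to 3478 in healthy valves, and 1611, 3385 and 5692 in stenotic valves. N1het stenosis XCT790 3 had the highest level of 15 members and N1het stenosis 3 of 9, while N1het healthy 4 had the lowest of 13 and WT 4 of 10.

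**Figure D1:**
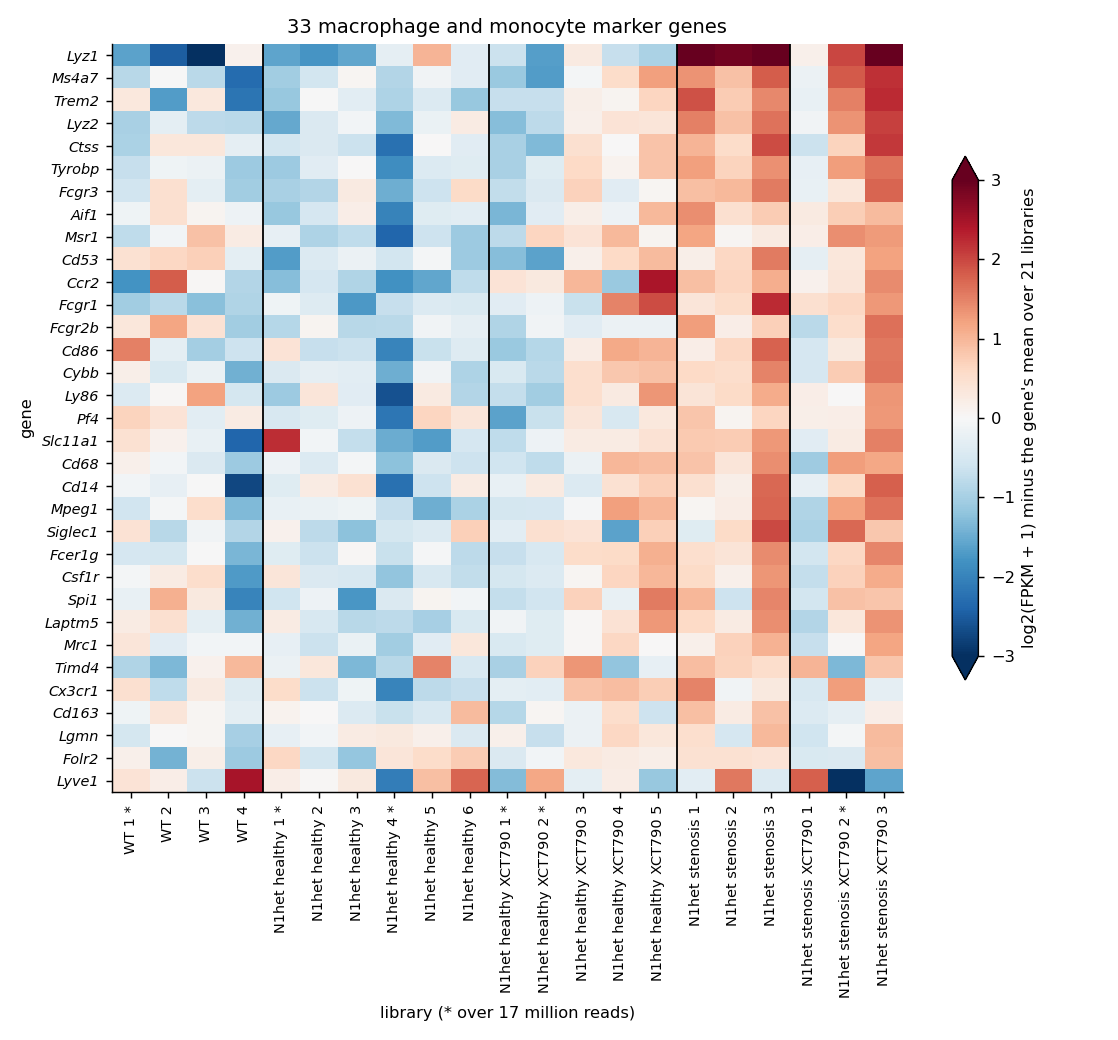
Level of each of the 33 marker genes (rows, ordered by the stenosis difference over both treatments) in each of 21 libraries (columns), as log2(FPKM + 1) minus the mean of that gene, with colours saturating at 3 in either direction. Asterisks mark the 6 deep libraries, and black lines separate the 5 groups. Red dominates the stenotic libraries other than N1het stenosis XCT790 1. Among the bottom rows, Folr2 and Cd163 show smaller differences, and Lyve1 does not share that pattern.

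Stenotic and healthy N1het valves were compared first. Differences are on the scale log2(FPKM + 1), so that 1 unit is a doubling of FPKM + 1, and were tested with limma over all 14966 genes with a mean of at least 1 FPKM, with Benjamini-Hochberg adjustment over all of them. Averaged over both treatments, 2 members passed an adjusted p of 0.05, Lyz1 and Lyz2, and both rose. That threshold called 0.374% of all genes. Of the 33 members, 32 had a positive difference, against 50.1% of all genes, and 21 had an unadjusted p under 0.05 in the upward direction, against 6.01% of all genes. The median difference of the members was 0.93, and that of all genes was 0.00. No member separated all 6 stenotic from all 11 healthy libraries, a pattern seen upward in 0.0401% of genes.

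Under solvent alone, all 33 members had a positive difference (46.8% of all genes did), with a median of 1.33 against -0.04 over all genes. No member passed the adjusted threshold in limma, which called 0.0334% of genes here, although 23 had an unadjusted p under 0.05 upward (4.59% of genes). For 18 members every stenotic library lay above every N1het healthy library, against 2.72% of all genes: Lyz1, Lyz2, Cd68, Fcgr1, Fcgr2b, Fcgr3, Fcer1g, Tyrobp, Ctss, Ms4a7, Ccr2, Aif1, Mpeg1, Trem2, Cybb, Msr1, Cd53 and Ly86. Under XCT790, 30 members had a positive difference (53.4% of genes), with a median of 0.44 against 0.04. Of them, 4 had an unadjusted p under 0.05 (2.65% of genes), namely Lyz1, Lyz2, Ms4a7 and Trem2. No member passed the adjusted threshold, and none separated the groups (2.06% of genes did, upward). In this comparison limma called 0 of 14966 genes and gave 396 genes higher and 364 lower at an unadjusted p under 0.05. Without N1het stenosis XCT790 1 the median under XCT790 was 0.99, and without N1het stenosis XCT790 3 it was 0.02. It was 0.06 without the 6 deep libraries and 0.09 by the agent field.

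**Figure D2:**
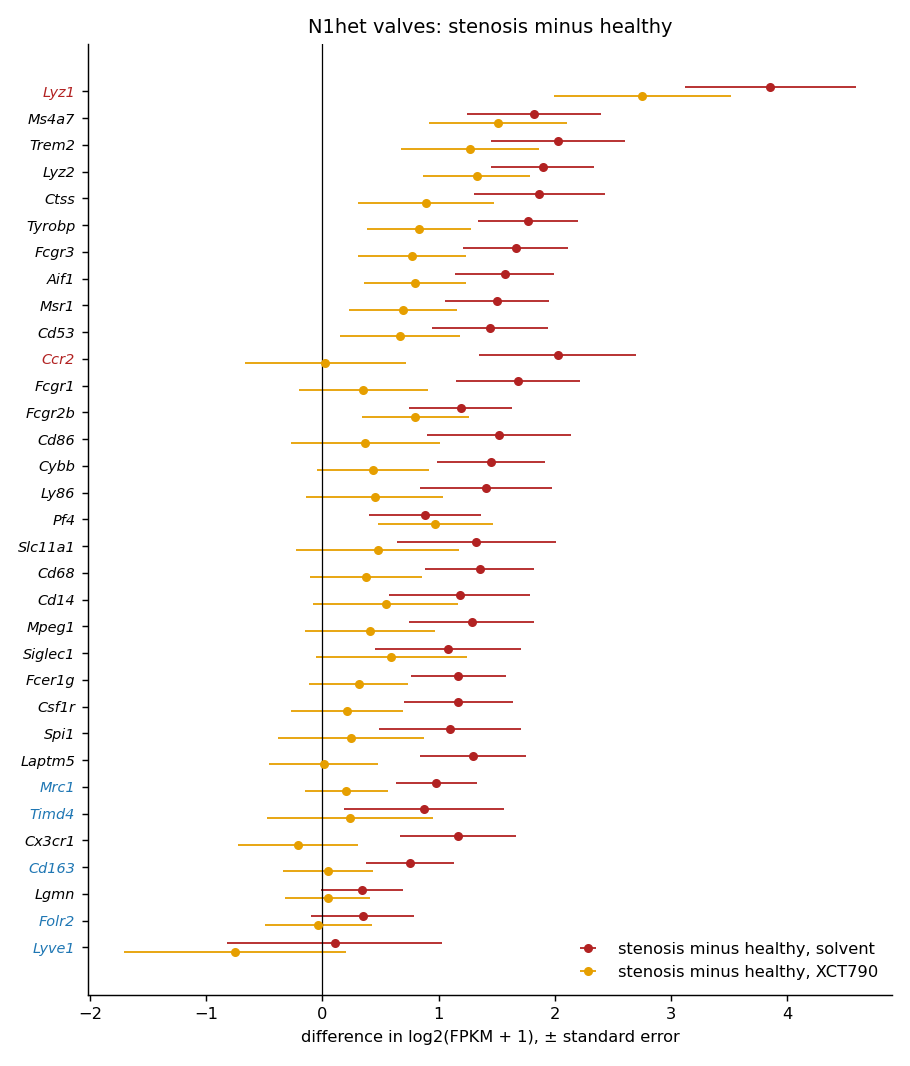
Difference between stenotic and healthy N1het valves for each of 33 marker genes, in log2(FPKM + 1) with its standard error from limma, under solvent (red) and under XCT790 (orange). Gene names in blue are resident-type, in red recruited-type. Lyz1 stands at the top under both treatments, and the 5 resident-type genes all lie among the lowest 7 rows.

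Lyz1 showed the largest difference of the set. It encodes the rarer of the mouse lysozymes, an enzyme that cuts bacterial cell walls, best known from Paneth cells of the gut and also made by some myeloid cells. Its level was 3.93, 1.70, 0.526 and 15.5 FPKM in WT valves, and ranged from 3.42 through a median of 7.5 to 29.4 in N1het healthy valves. For that group the lowest, median and highest values are given in this form for other genes too. On XCT790, healthy valves had 8.61, 3.77, 17.1, 8.33 and 6.79. Stenotic valves had 124, 111 and 152 FPKM on solvent, and 15.7, 59.6 and 222 on XCT790. So 5 of the 6 stenotic libraries exceeded every healthy one, the exception being N1het stenosis XCT790 1. Over both treatments the difference was 3.30 ± 0.53 (SE), with an adjusted p of 0.0142 in limma. Under solvent it was 3.85 ± 0.74 (adjusted p = 0.0734) and under XCT790 2.75 ± 0.76 (adjusted p = 0.702). The XCT790 value was 1.81 without N1het stenosis XCT790 3, 3.68 without N1het stenosis XCT790 1, and 3.38 (adjusted p = 0.310) by the agent field.

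Lyz2, the broadly expressed macrophage lysozyme, started from a level far above that of Lyz1. WT valves had 563, 893, 642 and 629 FPKM, and N1het healthy valves ranged from 378 through 888 to 1295. Healthy valves on XCT790 had 453, 633, 1213, 1471 and 1424. Stenotic valves had 3117, 2031 and 3419 FPKM on solvent and 1017, 2801 and 4585 on XCT790, so that again all but N1het stenosis XCT790 1 lay above every healthy library. The difference over both treatments was 1.61 ± 0.32 with an adjusted p of 0.0250 in limma, 1.89 ± 0.45 under solvent (adjusted p = 0.152) and 1.33 ± 0.46 under XCT790 (adjusted p = 0.878). The XCT790 value was 0.85 without N1het stenosis XCT790 3, 1.93 without N1het stenosis XCT790 1, and 0.82 (adjusted p = 0.762) by the agent field. Leaving out the 6 deep libraries kept both directions but neither call: Lyz1 then differed by 3.12 (adjusted p = 0.246) and Lyz2 by 1.06 (adjusted p = 0.349), in a fit that called no gene at all. Without N1het stenosis 3, neither gene was called, with adjusted p-values of 0.0591 for Lyz1 and 0.0933 for Lyz2. The Lyz2 call was also lost without N1het healthy XCT790 2 (adjusted p = 0.0543), N1het stenosis 1 (0.0708), N1het stenosis XCT790 2 (0.0634) or N1het stenosis XCT790 3 (0.0993).

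**Figure D3:**
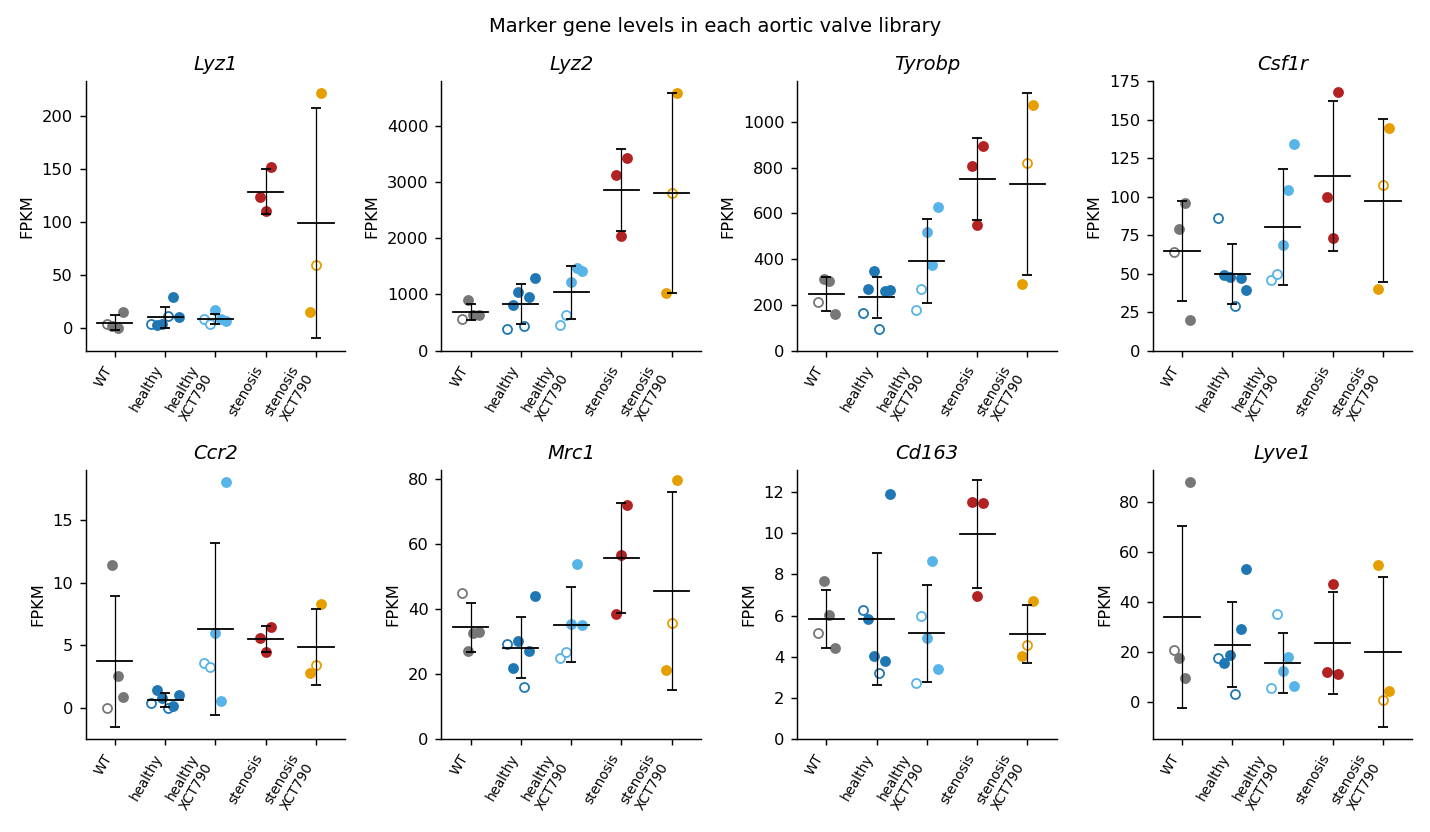
FPKM of 8 marker genes in each library, in the 5 groups from WT on the left to stenotic valves with XCT790 on the right; horizontal bars are group means, whiskers are ± SD (n = 4, 6, 5, 3 and 3), and open points are the 6 deep libraries. In the Lyz1 panel the 3 stenotic solvent points sit between 111 and 152 FPKM, above every healthy library, whereas in the Lyve1 panel no group stands apart.

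The lysozyme genes are neighbours on chromosome 10 and near-copies of each other. Their coding sequences are 95.08% identical (22 of 447 bases differ) and their transcripts 91.95%, with a longest identical run of 118 bases, so a share of their reads may have been assigned to the wrong gene. The sources used here do not say how reads that match both were counted. The 250 bases in front of each start are printed because both genes rose and because these windows, too, are copies, 79.37% identical over 252 aligned positions. They come from RefSeq on GRCm38.p6, at chr10:117292869-117293118 for Lyz1 and chr10:117282273-117282522 for Lyz2, both on the minus strand and written 5′ to 3′ along the gene. Capitals mark ACTTCC, the reverse complement of GGAAGT, which is a core often bound by PU.1 and other ETS factors.
Lyz1: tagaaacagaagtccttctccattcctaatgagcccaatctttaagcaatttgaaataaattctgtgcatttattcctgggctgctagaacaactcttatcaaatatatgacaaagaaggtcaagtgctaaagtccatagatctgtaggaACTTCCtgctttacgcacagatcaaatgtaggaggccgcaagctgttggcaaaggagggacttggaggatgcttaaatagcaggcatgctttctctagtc
Lyz2: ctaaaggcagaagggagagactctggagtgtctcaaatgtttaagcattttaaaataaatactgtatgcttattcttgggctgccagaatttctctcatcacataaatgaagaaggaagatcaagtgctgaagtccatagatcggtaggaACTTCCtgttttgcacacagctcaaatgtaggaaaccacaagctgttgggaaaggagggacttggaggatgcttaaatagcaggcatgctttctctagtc

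In both windows the match begins 100 bases before the start, and the last 50 bases are identical. GGAAGT was searched on both strands in the same 250 bases of every RefSeq start: 19.7% of 32851 windows held it, and 10 of the 29 windows found for 25 members did. The members with a match were Fcgr1, Fcgr2b, Folr2, Laptm5, Lyz1, Lyz2, Mrc1, Ms4a7, Pf4 and Timd4, which include 3 resident-type genes. The longer form GAGGAAGT, which contains the shorter, was held by 2.44% of all windows and among members only by Pf4. A match describes letters, not binding.

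Since Lyz1 and Lyz2 did not rise to the same degree, their ratio was taken within each library. Lyz1 stood at 0.0819% to 2.47% of the Lyz2 FPKM in WT valves, 0.392% to 3.05% in N1het healthy valves and 0.477% to 1.90% in N1het healthy valves on XCT790. In stenotic valves it stood at 3.97%, 5.46% and 4.46% on solvent, and at 1.54%, 2.13% and 4.84% on XCT790. Over both treatments the ratio in stenotic N1het valves was 3.65-fold higher than in healthy ones, with an exact two-sided permutation p of 0.00213 over 4704 reassignments within treatments. It was 4.48-fold higher under solvent (exact permutation p = 0.0357) and 2.97-fold higher under XCT790 (exact permutation p = 0.0536). Against WT the solvent group was 11.4-fold higher, with an exact permutation p of 0.0571 where the smallest possible is 0.0286. That fold rests on few Lyz1 reads in WT 2 (23) and WT 3 (6), and it was 6.66 without WT 3 and 20.7 without WT 4. Leaving out each library, the ratio over both treatments stayed between 3.10-fold and 4.12-fold higher, with exact permutation p-values from 0.00102 to 0.0068. Under solvent the exact permutation p reached 0.0714 without any 1 of the 3 stenotic libraries, where the smallest possible is 0.0357, and 0.0536 without N1het healthy 4. Under XCT790 the fold ran from 2.14 without N1het stenosis XCT790 3 (exact permutation p = 0.238) to 3.80 without N1het stenosis XCT790 1 (exact permutation p = 0.0476, the smallest possible). The 4 ratio tests were chosen after the levels had been seen, and with Benjamini-Hochberg adjustment over them the exact permutation p was 0.0085 for both treatments together and 0.0571 for each of the other 3.

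**Figure D4:**
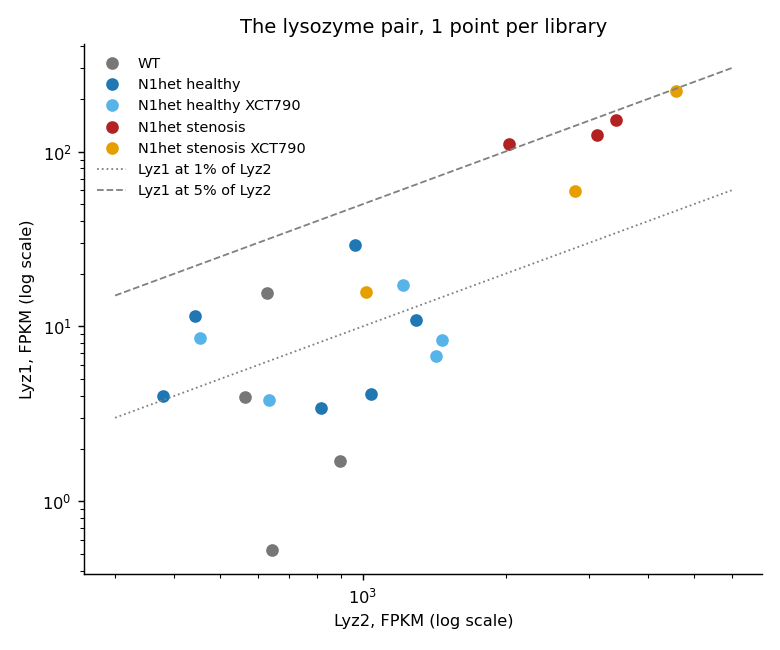
Lyz1 against Lyz2 in FPKM, both axes logarithmic, 1 point for each of 21 libraries, coloured by group, with lines where Lyz1 is 1% and 5% of Lyz2. The 3 stenotic solvent libraries lie near the 5% line at 2031 FPKM of Lyz2 or more, and N1het stenosis XCT790 1 lies among the healthy libraries.

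Among genes of activating receptors, Tyrobp, whose product passes on signals from TREM2 and related receptors, had 214, 315, 304 and 160 FPKM in WT valves, 94.2 through 264 to 346 in N1het healthy valves, and 176, 269, 518, 374 and 628 in healthy valves on XCT790. It had 807, 551 and 895 FPKM in stenotic valves and 292, 819 and 1074 in those on XCT790. The solvent groups did not overlap, and the XCT790 groups did. Its difference over both treatments was 1.30 ± 0.31 with an adjusted p of 0.0668 in limma, and without N1het stenosis XCT790 1 it passed at 1.58 (adjusted p = 0.0193).

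Trem2, a lipid-sensing receptor of macrophages in fatty and remodelling tissue, was low in healthy valves: 6.27, 0.819, 6.29 and 0.264 FPKM in WT, 1.66 through 2.72 to 4.73 in N1het, and 2.61, 2.61, 5.52, 5.19 and 8.14 in N1het on XCT790. In stenotic valves it reached 20.8, 8.90 and 14.7 FPKM, and 3.98, 15.5 and 26.6 on XCT790. All 3 stenotic solvent libraries thus lay above all 15 healthy ones. The difference over both treatments was 1.65 ± 0.41 (adjusted p = 0.0855 in limma).

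Fcgr3, the low-affinity activating IgG receptor, had 42.4, 89.1, 51.7 and 30.4 FPKM in WT, 22.6 through 37.8 to 95.8 in N1het healthy and 38.1, 47.4, 104, 50.4 and 66.1 in N1het healthy valves on XCT790. Stenotic valves had 120, 127 and 192 FPKM, and 54.5, 80.5 and 218 on XCT790, which overlaps with healthy valves on the drug. The difference was 1.22 ± 0.32 over both treatments (adjusted p = 0.107 in limma). The other Fc receptor genes gave 1.02 for Fcgr1, the high-affinity IgG receptor, 0.99 for Fcgr2b, the inhibitory one, and 0.74 for Fcer1g, the shared signalling chain; none was called.

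Ms4a7, a membrane protein gene largely restricted to macrophages, had 52.6, 92.7, 53.5 and 18.3 FPKM in WT valves, 44.8 through 68.8 to 98.0 in N1het healthy and 42.8, 28.6, 89.8, 138 and 221 in N1het healthy valves on XCT790. It had 240, 172 and 335 FPKM in stenotic valves and 83.2, 341 and 436 on XCT790. Those 3 solvent libraries lay above all 10 healthy solvent libraries, and the difference over both treatments was 1.67 ± 0.41 (adjusted p = 0.0838 in limma).

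Aif1, which encodes the actin-binding protein IBA1 of macrophages, had 42.0, 63.8, 48.3 and 41.1 FPKM in WT, 10.6 through 33.7 to 52.9 in N1het healthy and 17.04, 36.2, 51.8, 40.8 and 91.1 in N1het healthy valves on XCT790. Stenotic valves had 121, 64.8 and 78.5 FPKM on solvent and 55.3, 76.5 and 89.8 on XCT790. All 3 solvent values lay above every N1het healthy library on solvent, while the XCT790 groups overlapped. The difference was 1.18 ± 0.31 over both treatments (adjusted p = 0.0984 in limma).

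Csf1r, the receptor for the growth factors CSF1 and IL-34 on which macrophages depend, differed less. It had 64.0, 79.2, 96.0 and 19.8 FPKM in WT, 28.9 through 47.4 to 86.0 in N1het healthy, and 45.9, 49.5, 68.8, 104 and 134 in N1het healthy valves on XCT790. Stenotic valves had 99.8, 73.5 and 168 FPKM, and 40.0, 108 and 144 on XCT790, so the groups overlapped under both treatments. The difference was 0.69 ± 0.34 over both treatments (adjusted p = 0.444 in limma) and 1.17 ± 0.47 under solvent (adjusted p = 0.412).

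The remaining members outside the resident and recruited types had positive differences over both treatments, none of them called. Among genes of the phagosome and lysosome, the difference was 1.38 for Ctss, 1.10 for the scavenger receptor Msr1, 0.94 for Cybb, the catalytic subunit of the phagocyte NADPH oxidase, 0.90 for the metal transporter Slc11a1, 0.86 for the lysosomal glycoprotein Cd68, 0.85 for the pore-forming protein Mpeg1 and 0.19 for Lgmn, the protease legumain. Among surface and regulatory genes it was 1.05 for the tetraspanin Cd53, 0.95 for the costimulatory ligand Cd86, 0.93 for Ly86, a partner of a Toll-like receptor homologue, 0.93 for Pf4, 0.86 for Cd14, the co-receptor for bacterial lipopolysaccharide, and 0.84 for Siglec1. It was 0.67 for Spi1, 0.65 for the lysosomal membrane protein Laptm5 and 0.48 for Cx3cr1, the fractalkine receptor; without the 6 deep libraries the value of Cx3cr1 was -0.05. Cx3cr1 also dropped to 0.25 without N1het stenosis 1 and to 0.21 without N1het stenosis XCT790 2. Laptm5 gave 0.39 without N1het stenosis XCT790 3, and Siglec1 gave 0.52 without N1het stenosis 3 and 0.54 without N1het stenosis XCT790 2. Lgmn ranged from -0.018, without N1het stenosis XCT790 3, to 0.40, without N1het stenosis 2.

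The 5 resident-type genes had a median difference of 0.40 over both treatments, and none was called. Mrc1, the mannose receptor, had 45.0, 27.3, 32.7 and 32.8 FPKM in WT, 16.2 through 28.1 to 44.0 in N1het healthy and 24.9, 26.9, 35.4, 53.9 and 35 in N1het healthy valves on XCT790. Stenotic valves had 38.5, 56.7 and 72.0 FPKM and, on XCT790, 21.2, 35.7 and 79.6. Its difference of 0.59 ± 0.25 was the only one of the 5 with an unadjusted p under 0.05 (adjusted p = 0.348 in limma), and both pairs of groups overlapped. Without N1het stenosis XCT790 3 it was 0.34 (adjusted p = 0.750).

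Cd163, the scavenger receptor for haemoglobin bound to haptoglobin, had 5.17, 7.68, 6.04 and 4.45 FPKM in WT, 3.23 through 4.94 to 11.9 in N1het healthy and 2.74, 5.99, 4.93, 8.65 and 3.40 in N1het healthy valves on XCT790. Stenotic valves had 11.5, 6.94 and 11.4 FPKM on solvent and 4.04, 4.58 and 6.72 on XCT790. Here the 2 stenotic groups did not overlap with each other, with Cd163 lower on XCT790; 1 of 33 members did so, a share close to the 2.66% of all genes that were lower without overlap. No member was higher without overlap, against 6.09% of genes. For Cd163 the difference between them was -0.84 ± 0.43 (adjusted p = 1 in limma). Stenotic against healthy valves gave 0.40 ± 0.27 over both treatments.

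Folr2, the folate receptor beta, had 9.76, 2.61, 9.91 and 3.50 FPKM in WT, 3.32 through 12.2 to 15.3 in N1het healthy and 6.16, 8.09, 10.9, 10.4 and 9.84 in N1het healthy valves on XCT790. Stenotic valves had 12.3, 12.1 and 11.8 FPKM, inside the healthy range, and 6.03, 6.16 and 17 on XCT790. The difference over both treatments was 0.15 ± 0.32, and -0.07 without N1het stenosis XCT790 3.

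Lyve1, a hyaluronan receptor of perivascular macrophages and also of lymphatic vessels, varied widely within groups. WT valves had 20.4, 17.6, 9.28 and 87.9 FPKM, N1het healthy valves 2.84 through 18.1 to 52.9, and N1het healthy valves on XCT790 5.55, 35.03, 12.2, 17.8 and 6.39. Stenotic valves had 11.98, 47.2 and 11.2 FPKM and, on XCT790, 54.6, 0.693 and 4.35. Its difference over both treatments was -0.32 ± 0.66, the only negative one of the 33, and it was 0.02 without the 6 deep libraries and 0.23 without N1het stenosis XCT790 2. Of 6 lymphatic endothelial markers none was called. They summed to 51.6 to 117 FPKM in stenotic and 42.7 to 195 in healthy N1het solvent libraries, and to 50.1 to 263 and 49.9 to 71.5 on XCT790. Their mean log2(FPKM + 1) was highest in N1het stenosis XCT790 1 (5.237), N1het stenosis 2 (4.185), N1het healthy 6 (3.954) and WT 4 (3.73). The same libraries had the highest Lyve1 levels. They were also rich in heart muscle markers, with means of 5.617, 6.564, 6.784 and 5.949 in the same order. N1het healthy 2, with a heart muscle mean of 6.155, had only 15.55 FPKM of Lyve1. The part of either set of markers in the Lyve1 level was not tested.

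Timd4 had 0.363, 0, 1.80 and 4.04 FPKM in WT, 0 through 1.04 to 6.16 in N1het healthy and 0.297, 3.12, 5.46, 0.127 and 1.16 in N1het healthy valves on XCT790. Stenotic valves had 3.87, 3.06 and 2.69 FPKM and, on XCT790, 4.17, 0 and 3.53. The groups overlapped, and the difference was 0.56 ± 0.50 over both treatments (adjusted p = 0.723 in limma). It was 0.34 without N1het stenosis XCT790 1 and 0.94 without N1het stenosis XCT790 2.

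Ccr2, the recruited-type gene beside Lyz1, had 0.0161, 11.4, 2.60 and 0.905 FPKM in WT, 0 through 0.651 to 1.47 in N1het healthy and 3.64, 3.31, 5.98, 0.623 and 18.0 in N1het healthy valves on XCT790. Stenotic valves had 5.57, 4.49 and 6.48 FPKM, all above every N1het healthy library on solvent though not above every WT library, and 2.83, 3.48 and 8.32 on XCT790. Its difference was 2.02 ± 0.67 under solvent (adjusted p = 0.309 in limma), 0.03 ± 0.69 under XCT790 and 1.02 ± 0.48 over both (adjusted p = 0.421).

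To see whether members differed in stenosis beyond the amount seen for Csf1r, each gene's log2(FPKM + 1) was taken minus that of Csf1r in the same library and refitted with limma, a comparison chosen after the data were seen. Over both treatments the fit called 36 of 14965 genes and no member. Lyz1 gave 2.61 ± 0.63 (adjusted p = 0.0696), Ms4a7 0.98 ± 0.39 (0.218), Trem2 0.96 ± 0.48 (0.270) and Lyz2 0.92 ± 0.39 (0.232). By construction each value is the difference given above minus the 0.69 of Csf1r, and the median over all genes on this scale was -0.69. For Ccr2 and the 5 resident-type genes the adjusted p was 0.441 or more.

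Other genes of the same biology were taken from lists drawn up together with the members and holding none of them. Over both treatments 50.1% of all genes had a positive difference and 0.374% were called. An unadjusted p under 0.05 in limma was seen upward in 6.01% and downward in 5.49% of all genes. Of 13 tested genes of further tissue-resident macrophages, 11 had a positive difference over both treatments and 3 an unadjusted p under 0.05, led by Adgre1, the F4/80 antigen (1.18, adjusted p = 0.155 in limma). Of 11 tested genes of recruited monocytes, 9 were positive and 5 had an unadjusted p under 0.05, led by S100a4 (1.14, adjusted p = 0.0673) and Ly6c2 (1.62, adjusted p = 0.151), and none was called in either list. Their medians were 0.36 and 0.54, each below that of the members.

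All 3 C1q genes, which encode the complement starter made by macrophages, were positive, between 0.77 and 0.93, and uncalled. Of 20 genes of lipid-laden and phagocytic macrophages 18 were positive, with a median of 0.56, led by Plin2 (0.93) and the phosphatase gene Acp5 (1.81), and none was called. Among 17 tested genes of macrophage survival and monocyte attraction, Ccl2, the main ligand of CCR2, was called at 1.83 ± 0.34 (adjusted p = 0.0199 in limma): it ranged from 60.4 to 205 FPKM in stenotic and from 15.7 to 75.1 in healthy N1het valves. Ccl6 (1.90, adjusted p = 0.0584) and Ccl7 (1.56, adjusted p = 0.0919) followed. No gene was called among 10 tested inflammatory products, with a median of 0.55, or among 5 tested genes of alternative activation, with a median of 0.78.

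Markers of other cell types were examined in the same comparison, in which 50.1% of all genes were positive and 0.374% were called. All 10 pan-leukocyte genes were positive with a median of 0.95, and Selplg, the selectin ligand PSGL-1, was called (1.76, adjusted p = 0.0196 in limma). The 10 genes together summed to 369 to 617 FPKM in stenotic against 172 to 251 in healthy N1het solvent libraries, and to 274 to 638 against 202 to 528 on XCT790, which overlap. Of 12 neutrophil markers 8 are listed and 3 were tested; Csf3r, the G-CSF receptor, was called (2.21, adjusted p = 0.0171), while the listed markers together summed to 4.97 to 57.3 FPKM in stenotic and 0.584 to 10.1 in healthy N1het solvent libraries, and to 2.51 to 27.0 and 0.383 to 8.76 on XCT790, so both pairs overlapped. The neutrophil genes S100a8, S100a9 and Camp each had a median of 0 FPKM over the 21 libraries. Even so, S100a9 differed by 1.79 over both treatments (adjusted p = 0.147 in limma), by 3.15 under solvent (adjusted p = 0.129) and by 0.42 under XCT790. S100a8 differed by 0.58, 1.74 and -0.58, and neither gene was called. The listed neutrophil markers summed to 57.3 FPKM in N1het stenosis 2 and 50.6 in N1het stenosis 3, against 4.97 in N1het stenosis 1. Of 5 tested platelet genes 4 were positive, and Gp9 was called (2.53, adjusted p = 0.0378), with sums of 43.8 to 142 FPKM in stenotic and 5.87 to 41.7 in healthy N1het solvent libraries, and of 18.8 to 52.3 and 7.93 to 39.5 on XCT790, which overlap. Pf4 is also made by platelets and Lyz2 by neutrophils, and the part of these cells in the result was not tested. Of 10 fibroblast and valve interstitial markers 9 were negative and 3 were called, Dcn (-0.64), Mfap4 (-1.54) and Lum (-0.60); the sums were 4959 to 5995 FPKM in stenotic and 6394 to 10640 in healthy N1het solvent libraries, and 5377 to 6003 and 6995 to 9117 on XCT790, and their part in the result was not tested. Of 4 tested T cell genes 3 were positive, of 6 dendritic cell genes 5, of 8 endothelial genes 8, of 14 heart muscle genes 6, of 6 mast cell genes 0 and of 5 erythroid genes 0, and no gene of these lists was called.

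XCT790 was compared with solvent within each disease state. In healthy N1het valves no member was called, nor was any gene (0%), and at an unadjusted p under 0.05 limma gave 244 genes higher and 153 lower. Of the members, 29 had a positive difference (54% of genes), with a median of 0.54 against 0.04 over all genes. Ccr2 (1.74 ± 0.58), Msr1 (1.26 ± 0.39), Fcgr1 (1.08 ± 0.46) and Cx3cr1 (0.99 ± 0.43) had an unadjusted p under 0.05, against 1.63% of genes, each with an adjusted p of 1 in limma. Fcgr1 gave 0.71 without N1het healthy XCT790 5. Ccr2 was highest in N1het healthy XCT790 5 with 18.0 FPKM and was 0.623 FPKM in N1het healthy XCT790 4, which lies inside the solvent range. By the agent field in place of the titles the median was 1.04, with only N1het healthy XCT790 4 and 5 left on the drug. Those libraries had the highest member sums of all healthy valves, 3923 and 4909 FPKM.

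In stenotic valves on XCT790 against solvent, again neither a member nor any gene (0%) was called, and at an unadjusted p under 0.05 limma gave 379 genes higher (2.53%) and 122 lower (0.815%), with 0 members among them. Only Msr1 (0.46) and Pf4 (0.03) had a positive difference, and the other 31 were negative (41.7% of genes were), with a median of -0.25 against 0.09 over all genes. That median was 0.11 without N1het stenosis XCT790 1 and -0.73 without N1het stenosis XCT790 3, so 1 library of 3 sets its direction. N1het stenosis XCT790 1 had 2168 FPKM of heart muscle and 1110 of erythroid markers. N1het stenosis XCT790 2 and 3 had 291 and 166 of the former, and 19.2 and 12.8 of the latter. N1het healthy 6, with 5137 and 1249, had the highest member sum of its group. The part of muscle or blood in the member levels of these libraries was not tested. The difference between the stenosis effects under the drug and under solvent, tested as an interaction, called no member and no gene (0%), with 302 genes higher and 144 lower at an unadjusted p under 0.05. It was negative for 32 of 33 members (45.9% of genes), with a median of -0.85, the lowest unadjusted p being 0.0510 for Ccr2 (-2.0 ± 0.97, adjusted p = 1). All of these comparisons share libraries with the stenosis comparisons above.

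Against WT valves, N1het healthy valves had no called member and no called gene (0%) in limma, which gave 792 genes higher and 319 lower at an unadjusted p under 0.05. Of the members, 22 were negative (42.4% of genes), and their median was -0.15 against 0.09, which turned to 0.03 without N1het healthy 4. Msr1 (-1.07 ± 0.41) and Cd53 (-1.03 ± 0.46) had an unadjusted p under 0.05 downward, against 2.13% of genes, and adjusted p-values of 0.570 and 0.631. Stenotic solvent valves against WT gave 1 called member, Lyz1, which rose by 4.91 ± 0.79 (adjusted p = 0.0362), where 0.0334% of genes were called. That call was lost without any 1 of 11 libraries, among them all 3 stenotic solvent libraries and WT 1 to 3, the adjusted p then lying between 0.0501 and 0.310. Those fits called 0 to 2 of all genes, where the main fit called 5. Of the members, 32 were positive (54.4% of genes) and 12 had an unadjusted p under 0.05 upward (6.35% of genes), with a median of 1.00, and 15 lay above WT without overlap (5.05% of genes), among them the resident-type gene Folr2. Stenotic valves on XCT790 against WT gave no called member or gene (0%) in limma, 9 members with an unadjusted p under 0.05 upward (6.76% of genes), 31 positive members (61.6% of genes), a median of 0.82 against 0.17, and 3 members without overlap (5.24% of genes): Lyz1, Lyz2 and Fcgr1. By the agent field, which puts all 6 stenotic libraries on XCT790, 4 members were called against WT, Lyz1 with a difference of 4.37 (adjusted p = 0.0140 in limma) among them. How many of all genes that fit called is not given here. The 4 therefore do not tell a shift of the members from a shift of all genes. By the titles, 1 member was called without N1het stenosis XCT790 1, in a fit that called 3 genes in all.

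The authors' deposited table marks genes as changed or not by a test that the sources used here do not describe. In stenotic against healthy N1het valves it marks 6 of the 33 members (1.26% of all genes): Lyz1, Lyz2, Fcgr1, Tyrobp, Ctss and Trem2. In stenotic N1het against WT valves the authors' deposited table marks 4 (1.35% of genes): Lyz1, Lyz2, Fcgr1 and Ms4a7. The authors' deposited table marks no member in N1het healthy against WT valves (0.666% of genes), nor for XCT790 in healthy (0.125%) or stenotic valves (0.268%).

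Whether members vary together apart from the group differences was asked with Csf1r as the reference gene. Each gene's log2(FPKM + 1) was centred on its group mean, and Pearson's r and Spearman's rho with Csf1r were taken over 21 libraries, with p-values from 100000 permutations within groups, adjusted by Benjamini-Hochberg over 14965 genes. The closest were Laptm5 (r = 0.89, rho = 0.86, adjusted permutation p = 0.103), Cybb (0.86 and 0.77, adjusted permutation p = 0.123), Cd68 (0.85 and 0.82, 0.103), Fcer1g (0.85 and 0.81, 0.103) and Mpeg1 (0.85 and 0.81, 0.150). No member passed the adjusted threshold, while 22 of 32 had a positive r with an unadjusted permutation p under 0.05, against 3.73% of genes. The median r of the members was 0.59, that of all genes was -0.01, and without WT 4 and N1het stenosis 3, the libraries farthest from the median of Csf1r, it was 0.58.

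Lyve1 gave r = -0.51 (rho = -0.42), Timd4 -0.28 (-0.22) and Lyz1 -0.12 (-0.19), the only negative values, while Mrc1 gave 0.51, Cd163 0.38, Ccr2 0.38 and Folr2 0.36, all with adjusted permutation p-values of 0.655 or more. Within the 15 libraries that were not deep, Cd14 gave 0.95, Ms4a7 0.92 and Lyve1 -0.89, and Cx3cr1 dropped from 0.52 to 0.16. Without the 2 farthest libraries Lyz1 turned to 0.21 and Lyve1 gave -0.36.

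**Figure D5:**
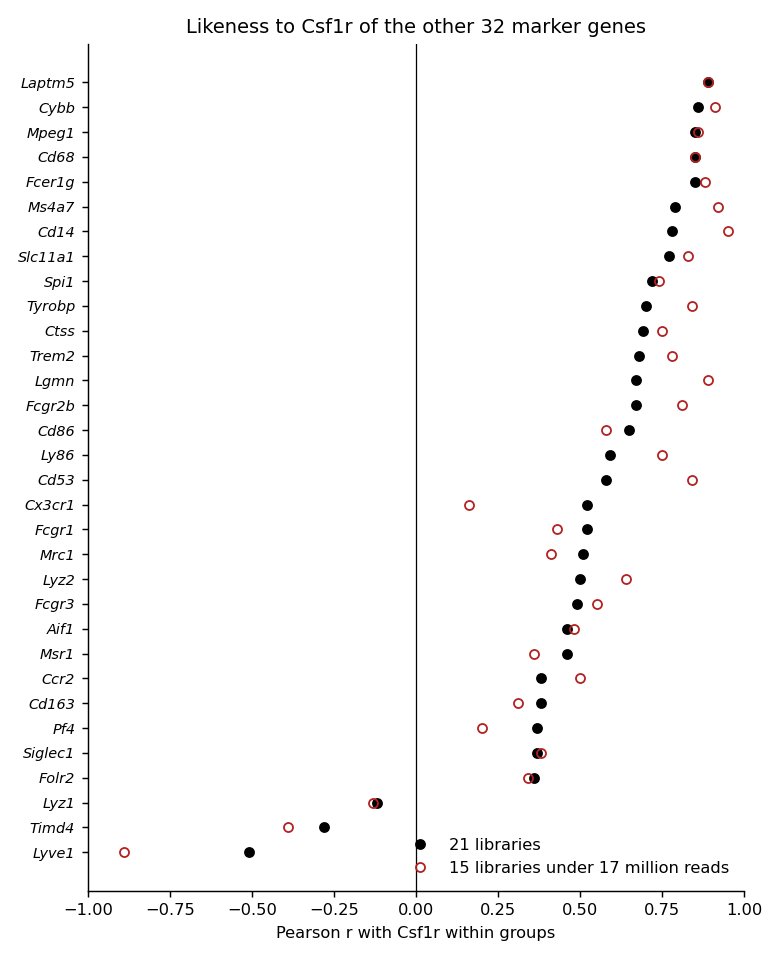
Pearson r with Csf1r of the other 32 marker genes, after centring on group means, over 21 libraries (black) and within the 15 libraries that were not deep (red circles). Laptm5 is at the top with 0.89, and Lyz1, Timd4 and Lyve1 are the only genes left of 0.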

How the data were processed

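RNA was measured by RNA-seq in 21 libraries of whole aortic valves, with RNA from the Qiagen RNeasy Micro kit amplified, per the labels' protocols, by NuGEN's Ovation RNA-Seq System V2. The values used are FPKM per gene as deposited by the authors, per the file headers, in 1 table for all libraries. The same deposited table holds the authors' 0 or 1 marks for 5 comparisons. FastQC, HISAT2, SAMtools, Picard and the build mm9 are named in the submitters' processing notes; versions, counting tool, annotation, strand and the handling of multi-mapped reads were not given in the sources used here.

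Whole reads were recovered from the steps of the FPKM values for every nonzero value within a tolerance of 0.01, and gave the depth of each library and an alternative fit. Genes with a mean of at least 1 FPKM were kept (14966 tested, 5906 left out), and log2(FPKM + 1) was fitted by limma (version 3.58.1, with statmod 1.5.0, under R 4.3.3), with 1 mean per group over 21 libraries and moderated variances with a trend and robust settings. P-values were adjusted by Benjamini-Hochberg over all tested genes, with a threshold of 0.05. Likeness to Csf1r used 100000 permutations within groups, and the Lyz1 to Lyz2 ratio an exact permutation test. These steps were tested on simulated data. Promoter windows are RefSeq's on GRCm38.p6, and lysozyme transcripts and coding sequences are GENCODE's.

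The members and lists were chosen with earlier results of these data known. Library values are given for the resident-type and recruited-type genes, Lyz2, Csf1r, called members and the 5 members with the smallest p in stenosis under solvent and in both treatments. In N1het healthy valves on solvent, the lowest, median and highest values stand in their place. From each other list at most 3 genes with the smallest p are named. Alternatives were another pseudocount, other filters, median-of-ratios scaling, voom on the recovered reads, covariates for heart muscle level and deep libraries, leaving out the deep libraries or each library in turn, the agent field in place of titles, only the compared groups, and the replicate number as a block.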

Additional observations from a re-analysis of the deposited data

Results flagged for a closer look

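Within groups of 4 to 6 libraries, 99 sets of values were searched for a library whose gap to its nearest neighbour takes up most of the group's range, and 8 had one. The limits used flag about 1 in 20 sets, or 5, if values are normally distributed. The search used FPKM without logarithms, and members vary together within libraries, so 8 cannot be judged against 5. All 8 were the highest of their group on that scale. N1het healthy 1 stood apart with 86.0 FPKM of Csf1r, 96.9 of Laptm5 and 30.9 of Slc11a1. N1het healthy 5 stood apart with 29.4 FPKM of Lyz1 and 6.16 of Timd4, and N1het healthy 6 with 11.9 of Cd163. Among WT valves, WT 4 stood apart with 87.9 FPKM of Lyve1 and WT 1 with 27.9 of Cd86.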

How the results depend on the processing

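Of the values recomputed for the 9 comparisons and for likeness to Csf1r, 538 stayed within set limits, and 38 did not. For a count of called members the limit was 1.5 times. A median difference had to shift by less than 0.482, the pooled SD of the mean member level between libraries. Direction was not part of these limits. Medians for XCT790 in stenotic valves (up to 0.11) and for N1het against WT (up to 0.03) turned positive within them. The count of called members in stenosis under solvent, 0 of 33, was 1 with only the compared groups or at an adjusted p under 0.1, and 0 to 1 leaving out each library. Over both treatments the count of 2 was 0 without the 6 deep libraries, 6 with voom and 6 at an adjusted p under 0.1. For voom and for an adjusted p under 0.1 the number of all genes called is not given here. Both counts of 6 therefore do not tell a shift of the members from a shift of all genes. The count was 0 to 5 leaving out each library, and the number of all genes called, 56 of 14966 in the main fit, shifted too. The count was 0 without N1het stenosis 3 (2 genes called in all). It was 1 without N1het healthy XCT790 2 (31 in all), N1het stenosis 1 (26), N1het stenosis XCT790 2 (32) or N1het stenosis XCT790 3 (20). It was 5 without N1het healthy XCT790 5 (76) or N1het stenosis XCT790 1 (57). Against WT, the count of 1 for stenotic solvent valves was 0 with only the compared groups, with deep libraries as a covariate, without them or with voom, and 0 to 1 leaving out each library. For stenotic valves on XCT790 it was 4 by the agent field, in a fit whose number of all genes called is not given, and 0 to 1 leaving out each library. The median of the members in healthy valves on XCT790 was 1.04 by the agent field, which leaves only N1het healthy XCT790 4 and 5 on the drug. Leaving out each library, medians ranged from 1.08 to 1.52 for stenosis under solvent, 0.022 to 0.99 under XCT790 and 0.70 to 1.15 over both, and from -0.73 to 0.11 for XCT790 in stenotic valves. The cause of these shifts was not tested.

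Of single genes, 9 values turned direction. Over both treatments they were Cx3cr1 (-0.048) and Lyve1 (0.019) without the deep libraries, Lyve1 (0.23) without N1het stenosis XCT790 2, and Lgmn (-0.018) and Folr2 (-0.069) without N1het stenosis XCT790 3; leaving out each library, Lgmn reached up to 0.40, Folr2 up to 0.27 and Lyve1 down to -1.02. Under solvent Lyve1, at 0.10, was -0.26 with deep libraries as a covariate, -0.46 without them, -0.35 without N1het healthy 4 and -0.54 without N1het stenosis 2, and reached up to 0.45 leaving out each library.

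With the replicate number as a block, 3 members were called in stenosis under solvent and 4 over both treatments. For this fit, for voom, for an adjusted p under 0.1 and for the agent field, the number of all genes called is not given here. Those counts therefore do not tell a shift of the members from a shift of all genes. Libraries sharing a number across groups had a mean correlation of 0.01 in their deviations from group means (34 pairs, from -0.109 to 0.13), so the numbers do not pair the libraries. Groups of 3 and wide spread within groups limit the precision, and Timd4, Ccr2 and, in WT valves, Lyz1 rest on few reads.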
